A study of Homo sapiens with 24 samples.

Results

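The genes described here are the ligands and receptors of the tumour necrosis factor (TNF) superfamily in Karpas422 cells, a cell line of diffuse large B cell lymphoma (DLBCL) with the EZH2 genotype Y641N, treated with an inhibitor of EZH2 or with its solvent DMSO. Members were chosen by a rule on gene names, though earlier results of these data were known. They are genes whose symbols begin with TNFSF or TNFRSF and a digit, together with TNF, LTA, LTB, LTBR, CD40, CD27, CD70, FAS, FASLG, EDAR and NGFR. The choice gave 44 of the 19775 genes measured, of which 15 encode ligands, 26 encode receptors and 3 are non-coding RNAs named after a receptor gene. The symbols CD40LG, TNFRSF6B, TNFSF12 and TNFSF12-TNFSF13 could not be matched to a probe set of a single gene and are not analysed here. There were 8 groups of 3 arrays: EZH2i at 5 uM for 1, 2, 3 or 6 days, each with DMSO cells of the same day. All cells carried the Y641N change, which alters the catalytic domain of EZH2, so that no group shows the family in cells without it. A single line was used and the labels do not name the compound, and the p-values measure the spread between replicate cultures of that line.

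Ligands of this superfamily are mostly membrane proteins that act as trimers and can be shed, and their receptors cluster upon binding. Receptors with a death domain can recruit caspases, whereas most others recruit TRAF adaptors and turn on NF-kB. In B cells the family is known for CD40, which carries help from T cells, for the BAFF and APRIL system, which supports survival, and for lymphotoxins, which organise lymphoid tissue. EZH2 is the methyltransferase that places the repressive mark H3K27me3.

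The values are log2 expression, and differences between groups are taken within a probe set. Where levels are set against a median or another gene, they come from different probe sets. EZH2 transcript differed by 0.05, -0.09, -0.29 and -0.64 (log2, EZH2i minus DMSO at days 1, 2, 3 and 6), and only at day 6 was it called, at 9.57 with EZH2i against 10.21 with DMSO (SE 0.12, limma adjusted p = 8.9e-05). The compound acts on the protein, so this level is no check of inhibition. Of 7 B lineage markers 6 were measured. All 6 were above the median over the brightest probe sets of all genes and arrays, with MS4A1 highest at 12.6. None of 7 measured myeloid markers was. Of 8 stromal, endothelial and epithelial markers 1 was, COL1A1 at 6.74. Of 8 markers of T and NK cells 2 were, CD3G at 10.9 and CD3D, while CD2 was at 3.71. The highest myeloid marker, ITGAM at 5.14, did lie above the medians of the arrays over all probe sets, 4.96 to 5.03. The mean of the B lineage list was 10.8 with EZH2i and 10.4 with DMSO at day 6, the myeloid list was at 3.98 and 4.2, the T and NK list at 5.35 and 5.49, and the stromal, endothelial and epithelial list at 4.76 and 4.89. In RNA from whole cultures, fewer cells of a type and less RNA per cell cannot be told apart. Arrays with the replicate number 3 stood apart for LTB, TNF and LTA. Where a call was lost without those 8 arrays, the adjusted p without them is given, and for some genes also the difference.

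At day 6 the family split. Ligands of CD30, TRAIL receptors, DR3 and BAFF receptors rose, as did the receptors TNFRSF21 and CD40, while TNF and LTA fell. Of 15 ligands 5 rose and 4 fell, and of 26 receptors 3 rose and 6 fell, where a call is an adjusted p under 0.05 over all genes in limma. Among all genes 18.5% were called higher and 26.9% lower, 45.4% in all, so the 18 of 41 members called, 43.9%, lie near the share of all genes. The median size of the difference was 0.59 for ligands, 0.23 for receptors and 0.24 for all genes (log2, sign ignored). At least 2-fold differences were called for 6 higher and 2 lower of the 41 members, against 5.12% of all genes higher and 2.43% lower by that rule. Signed medians were -0.00 for ligands, -0.13 for receptors and -0.11 for all genes. Without the 8 arrays numbered 3 the higher count stayed at 8 and the lower count was 5, since TNFSF11, EDAR, TNFRSF10C, TNFRSF12A and TNFRSF1A were no longer called.

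Counts grew over the course. On day 1 only the ligand TNFSF8 was called, against 0.475% of all genes called higher and 0.0101% lower. No receptor was called on that day by limma, and none had an unadjusted p under 0.05. By day 2, 2 ligands rose, 2 fell and 1 receptor fell, where 3.57% of all genes were called higher and 0.824% lower. On day 3, 5 ligands and 3 receptors rose and 2 of each fell, where 8.64% of all genes were called higher and 7.65% lower. Without the arrays numbered 3 the day 3 counts were 4 higher and 5 lower.

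**Figure D1:**
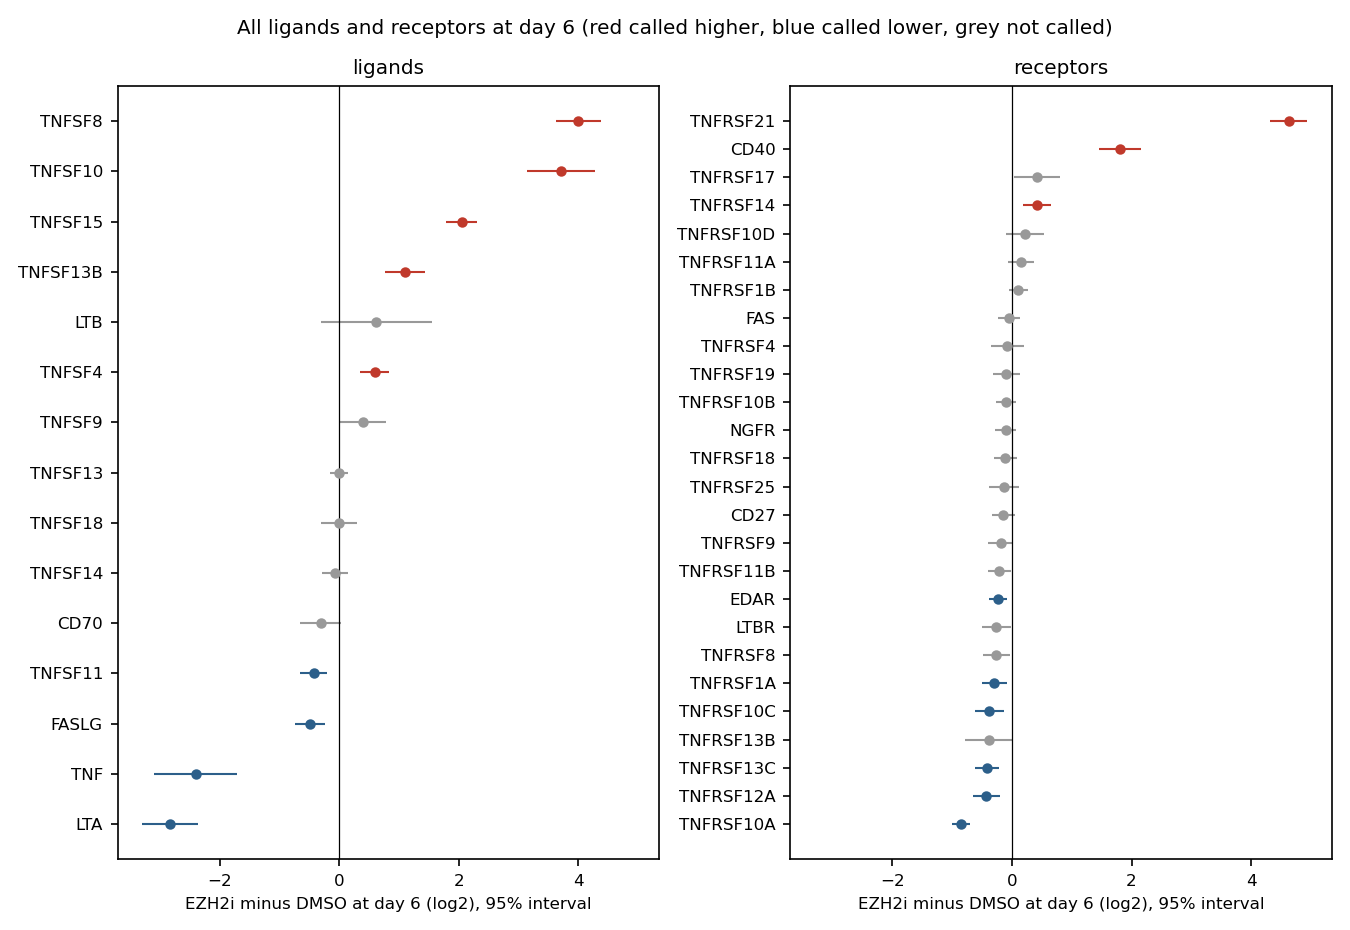
Difference in log2 expression, EZH2i minus DMSO at day 6, for all 15 ligands (left) and 26 receptors (right), as points with the 95% interval of the fit over 3 arrays a group. TNFRSF21 at 4.63 and TNFSF8 at 4.0 lie farthest to the right and LTA at -2.83 farthest to the left, and most receptors lie close to 0.

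TNFSF8, the ligand of CD30, was the only member called on all 4 days. On day 6 its log2 levels were 9.52, 9.37 and 9.26 with EZH2i against 5.51, 5.45 and 5.19 with DMSO. No array of one group reached the other. The differences on days 1, 2, 3 and 6 were 0.84, 1.58, 2.01 and 4.0 (SE 0.18 each), with limma adjusted p of 0.031, 8.2e-06, 7.2e-08 and 2.1e-13. The last is 16-fold on the brightest probe set, and the other sets gave smaller differences on day 6, as given below. Already on day 1 the EZH2i arrays, at 6.18, 6.12 and 5.74, all lay above the DMSO arrays, at 5.19, 5.46 and 4.87. That first call was lost when the probe sets of the gene were averaged (adjusted p = 0.54), when only the day 1 groups were fitted (0.13) and when any of 4 single arrays was left out (0.11 to 0.19). By day 3 the difference was 50.3% ± 5.01 (SE) of that on day 6. CD30 itself, TNFRSF8, was not called on any day and stood at a difference of -0.26 on day 6 (adjusted p = 0.057).

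TNFSF15, also called TL1A and a ligand of DR3, lies next to TNFSF8 on chromosome 9 with no protein-coding gene between them. Its day 6 levels were 10.33, 10.17 and 10.09 with EZH2i against 8.12, 8.11 and 8.23 with DMSO, groups that lie far apart. Differences over the 4 days were 0.25, 0.46, 1.00 and 2.04 (SE 0.12 each), called from day 2 on with limma adjusted p of 0.031, 5.6e-06 and 1.6e-11. The day 2 call was lost with averaged probe sets (0.25) and without single arrays (0.094 to 0.15). Flanking the pair, TEX48 and TNC were not called at day 6, at -0.11 and -0.19 (adjusted p of 0.20 and 0.092). The receptor DR3, TNFRSF25, stood at -0.14 on day 6 and was not called on its main probe set.

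TNFSF10, or TRAIL, binds death receptors and decoy receptors and is known as a gene that interferon induces. It was not called on days 1 and 2, with differences of -0.04 and 0.17 (SE 0.27), and then 1.57 on day 3 and 3.71 on day 6 (limma adjusted p of 0.00025 and 2.7e-10). EZH2i arrays held 7.53, 6.75 and 6.48 at day 6 against 3.18, 3.16 and 3.30 in DMSO arrays, 13.1-fold. On day 3 the EZH2i arrays were already above, but widely spread, at 4.04, 5.48 and 5.59 against 3.53, 3.49 and 3.38. TNFSF13B, or BAFF, a survival factor of B cells, was at 5.35, 4.87 and 4.75 with EZH2i on day 6 and at 3.92, 3.68 and 4.08 with DMSO. Its differences were 0.15, 0.29, 0.53 and 1.09 (SE 0.16 each), called on day 3 (adjusted p = 0.026) and day 6 (7.6e-06, 2.14-fold). The day 3 call was lost without the arrays numbered 3 (0.21) and without 4 single arrays. DMSO levels of TNFSF10 and TNFSF13B lie below the array median, where RMA tends to understate differences. Other probe sets gave smaller differences for TNFSF10 and a larger one for TNFSF13B on day 6, as given below.

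These TNFSF10 and TNFSF13B windows are shown because among the 27 members with a promoter in the RefSeq table they are the only ones that hold GAAANTGAA on either strand, the form of element that interferon response factors bind. It occurs in 1.60% of all 35116 promoter windows of the same length, and the motifs were picked after these windows had been read. Such percentages, here and below, count windows, while a member is counted if any of its windows holds the motif. A further motif searched on both strands, TTCNNNGAA, bound by STAT factors, was in 6.57% of all windows and in those of LTA, LTB, TNFRSF9 and TNFSF11. Each run gives the 250 bases before a RefSeq start on GRCh38.p14, 5′ to 3′ on the strand of the gene, with the match in capitals. TNFSF10 lies at chr3:172523431-172523680 on the minus strand and TNFSF13B at chr13:108269468-108269717 on the plus strand. The table holds 2 starts for TNFSF13B, and only the window shown, that of the downstream start, holds the match. A match is a description of letters, and no binding was measured.
TNFSF10: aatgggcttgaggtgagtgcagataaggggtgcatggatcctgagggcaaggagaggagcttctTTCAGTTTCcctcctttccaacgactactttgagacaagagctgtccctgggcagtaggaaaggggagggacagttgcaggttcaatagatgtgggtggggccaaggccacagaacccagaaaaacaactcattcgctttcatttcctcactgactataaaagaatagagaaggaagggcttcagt
TNFSF13B: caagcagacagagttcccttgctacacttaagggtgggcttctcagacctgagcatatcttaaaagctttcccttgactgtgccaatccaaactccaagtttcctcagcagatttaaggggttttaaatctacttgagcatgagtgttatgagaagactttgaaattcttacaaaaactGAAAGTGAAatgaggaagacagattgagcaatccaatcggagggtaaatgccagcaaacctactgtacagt

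LTA and TNF, the secreted lymphotoxin and the founding cytokine of the family, fell together. LTA stood at 6.53, 6.70 and 6.41 with EZH2i on day 6 against 9.52, 9.56 and 9.06 with DMSO. Its differences were -0.33, -1.32, -2.35 and -2.83 (SE 0.22 each), called from day 2 with limma adjusted p of 0.00071, 1.8e-07 and 7.6e-10, 7.13-fold lower at the end. TNF stood at 6.84, 6.39 and 6.40 with EZH2i against 9.02, 9.28 and 8.53 with DMSO, and again the groups lie apart. For TNF the differences were -0.27, -1.35, -1.96 and -2.40 (SE 0.33 each), called from day 2 with adjusted p of 0.02, 0.00022 and 3.6e-06, 5.28-fold lower at the end. Without single arrays the day 2 call of TNF was lost (0.077 to 0.13). By day 3 both had most of their day 6 difference, 83.1% ± 10.2 for LTA and 81.5% ± 18.0 for TNF (SE).

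LTB, the membrane lymphotoxin that anchors LTA at the cell surface, lies beside TNF on chromosome 6 and had another course. In EZH2i arrays it was at 8.78, 8.38 and 7.62 on day 3, against 9.85, 9.76 and 8.50 with DMSO. On day 6 it was at 9.86, 10.32 and 9.69 with EZH2i, against 9.62, 9.82 and 8.58 with DMSO. In each of these groups replicate 3 was the lowest, and the groups overlap. The differences were -0.14, -0.61, -1.11 and 0.62 (SE 0.45 each), none called in the fit of the 8 groups, with limma adjusted p of 0.53, 0.097 and 0.27 on days 2, 3 and 6. Without the arrays numbered 3 the day 3 difference was -1.23 (adjusted p = 0.00031) and that of day 6 was 0.37 (0.098). With the replicate number as a block, LTB was called lower on days 2 and 3 and higher on day 6. The limma adjusted p were then 0.017, 2.1e-05 and 0.0024, though the numbers were not taken to pair the cultures. A test of day 6 against day 3 was not run. On the far sides of the 3 genes, NFKBIL1 stood at -0.03 on day 6 (0.87), and LST1 fell on day 3 by 0.54 (SE 0.15, 0.019) and on day 6 by 0.41 (SE 0.15, 0.034).

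The upstream windows of the 3 neighbours are shown for their core elements, as above with 250 bases before a RefSeq start on GRCh38.p14. LTA and LTB have 2 starts each in the table, and for LTA only the window shown, that of the downstream start, holds the motif, while both LTB windows, which start 1 base apart, hold theirs. Capitals mark TATAAA in LTA and TNF, a core promoter element searched on both strands and present in 10.7% of all windows and in 6 members, and in LTB a match to GGACTTTCC, part of the NF-kB element, present in 0.333% of windows and in no other of the 27 members, read on the opposite strand. They are LTA at chr6:31572039-31572288 (plus), TNF at chr6:31575315-31575564 (plus) and LTB at chr6:31582426-31582675 (minus).
LTA: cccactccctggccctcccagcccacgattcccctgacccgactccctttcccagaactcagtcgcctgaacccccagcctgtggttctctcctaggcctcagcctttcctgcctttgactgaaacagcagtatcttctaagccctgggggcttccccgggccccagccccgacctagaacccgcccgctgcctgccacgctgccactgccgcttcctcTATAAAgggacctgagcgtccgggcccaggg
TNF: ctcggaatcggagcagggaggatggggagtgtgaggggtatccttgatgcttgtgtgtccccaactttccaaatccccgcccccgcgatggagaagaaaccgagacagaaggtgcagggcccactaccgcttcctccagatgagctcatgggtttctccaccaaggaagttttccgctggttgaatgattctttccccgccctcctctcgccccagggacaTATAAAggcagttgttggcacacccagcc
LTB: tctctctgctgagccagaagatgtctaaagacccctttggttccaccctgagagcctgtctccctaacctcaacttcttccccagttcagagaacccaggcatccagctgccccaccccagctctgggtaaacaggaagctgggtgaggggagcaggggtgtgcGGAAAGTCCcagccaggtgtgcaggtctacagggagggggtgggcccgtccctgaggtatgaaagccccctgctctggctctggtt

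Smaller calls were made for 4 further ligands. All 4 lie below the array medians, 4.96 to 5.03, on every array, so these are differences between low values. TNFSF4, the OX40 ligand, rose on day 6 by 0.59 (SE 0.12, limma adjusted p = 0.00021), with EZH2i at 4.56, 4.73 and 4.92 against DMSO at 4.17, 4.09 and 4.17. FASLG, the ligand of FAS, fell by 0.49 (SE 0.12, 0.0022), and its EZH2i arrays at 4.03, 4.32 and 4.03 lay below the DMSO arrays at 4.89, 4.56 and 4.39. The other FASLG probe set stood at -0.15 and was not called (limma adjusted p = 0.26). TNFSF11, or RANKL, fell by 0.43 (SE 0.11, 0.0027), a call that was lost without the arrays numbered 3 (0.08). On a probe set not marked as shared between genes TNFSF11 stood at 0.16, the other direction and not called. TNFSF13, or APRIL, rose only on day 3, by 0.33 (SE 0.07, 0.0028), was not called without the arrays numbered 3 (0.066) and stood at -0.00 on day 6. The ligands never called in the fit of the 8 groups were CD70, LTB, TNFSF9, TNFSF14 and TNFSF18. Their day 6 differences on the brightest probe sets were from -0.31 to 0.62, and another TNFSF14 set was called lower, as given below. With the replicate number as a block, LTB, CD70 and TNFSF9 were called on day 6.

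**Figure D2:**
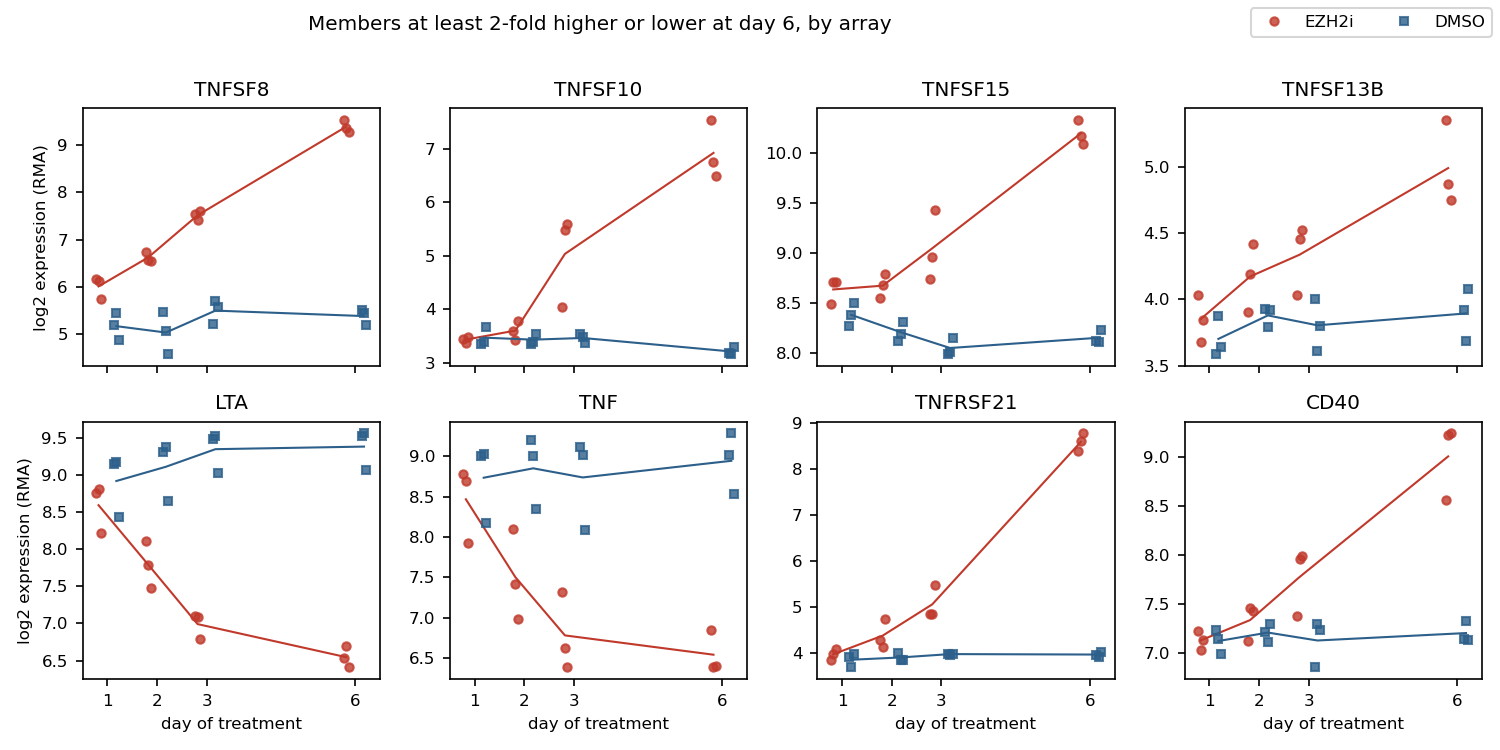
Log2 expression of the 8 members called at least 2-fold higher or lower at day 6, by day of treatment, with a point for each array (EZH2i circles, DMSO squares) and lines through the group means. Vertical axes differ between panels. TNFSF8 is apart from day 1 and LTA and TNF from day 2. On day 3 TNFRSF21 had 23.4% of its day 6 difference, CD40 36.0%, TNFSF10 42.3%, TNFSF13B 48.6% and TNFSF15 48.8%.

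Among receptors, TNFRSF21 moved most. It encodes death receptor 6, which has a death domain. Its log2 levels on day 6 were 8.40, 8.61 and 8.78 with EZH2i against 3.96, 3.91 and 4.03 with DMSO, 24.8-fold apart. Differences on the 4 days were 0.12, 0.48, 1.08 and 4.63 (SE 0.15 each), with limma adjusted p of 0.078, 2e-05 and 2.6e-15 from day 2 on. Only 23.4% ± 3.32 (SE) of the day 6 difference was present on day 3. The DMSO level lies below the array median of about 5, where RMA tends to understate differences. The other TNFRSF21 probe set gave a smaller difference on day 6, as given below, so the fold depends on the probe set.

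The TNFRSF21 window is shown for its base composition, beside the ligand windows above. It lies at chr6:47309906-47310155 (minus strand, GRCh38.p14) and holds 20 CG dinucleotides, in capitals. Of all windows 67.6% hold fewer, and the median window holds 11. The LTA window printed above holds 11 and that of TNF 10, close to that median, those of TNFSF10 and LTB hold 2 each and that of TNFSF13B holds 1. No methylation was measured.
TNFRSF21: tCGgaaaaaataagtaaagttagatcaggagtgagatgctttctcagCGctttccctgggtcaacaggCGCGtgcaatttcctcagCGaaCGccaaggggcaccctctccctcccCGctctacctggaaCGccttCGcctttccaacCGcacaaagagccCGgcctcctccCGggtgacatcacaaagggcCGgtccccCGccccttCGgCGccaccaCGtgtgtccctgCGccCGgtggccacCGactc

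On their brightest probe sets the other receptors with a death domain went the other way or were not called. Of 8 in this class 1 rose and 3 fell on day 6, a share called near the 45.4% of all genes. TNFRSF10A, a death receptor for TRAIL, was at 8.70, 8.68 and 8.70 with EZH2i against 9.57, 9.57 and 9.49 with DMSO. That gap is small but far larger than the spread within either group. Its differences were -0.10, -0.36, -0.52 and -0.85 (SE 0.07 each), called from day 2 with limma adjusted p of 0.0032, 1.7e-05 and 2e-09, although the day 2 value was 0.051 without the arrays numbered 3. TNFRSF1A, the broadly used TNF receptor, fell by 0.29 (SE 0.10, 0.024), and EDAR, the ectodysplasin receptor, fell by 0.23 (SE 0.07, 0.014). Without the arrays numbered 3 neither was called, with TNFRSF1A at -0.16 (0.26) and EDAR at -0.13 (0.27), and several single arrays had the same effect. TNFRSF1A stood at -0.16 (0.20) without EZH2i replicate 3 and at -0.44, still called, without EZH2i replicate 1. TNFRSF10B, the second TRAIL death receptor, fell on day 3 by 0.26 (SE 0.08, 0.029), a call lost without the arrays numbered 3 (0.11), and stood at -0.10 on day 6. Of its other probe sets, 2 were called lower on day 6, both at -0.56, and 1 at -0.16 was not. FAS stood at -0.05 on day 6 with a 95% interval from -0.23 to 0.14, which excludes a 2-fold change either way. NGFR and TNFRSF25 were not called on any day on their brightest probe sets, although other TNFRSF25 sets were called lower on day 6, as given below.

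Of the 5 receptors of B cell survival and costimulation, CD40 rose and TNFRSF13C fell on day 6. That is 40% called, near the 45.4% of all genes. CD40 was at 8.56, 9.22 and 9.24 with EZH2i on day 6 against 7.15, 7.33 and 7.13 with DMSO. It differed by 0.01, 0.13, 0.65 and 1.80 (SE 0.17 each), called on day 3 (limma adjusted p = 0.0089) and day 6 (9.8e-09, 3.49-fold). These are values of its brightest probe set, and 2 of its 3 other sets were called already on day 2, at 1.28 (0.012) and 0.88 (0.029). Leaving out the arrays numbered 3 lost the day 3 call (0.11), as did 3 single arrays (0.058 to 0.066). TNFRSF13C, the BAFF receptor, fell by 0.42 on day 6 (SE 0.10, 0.0012), with EZH2i at 6.38, 6.64 and 6.44 against DMSO at 6.86, 7.01 and 6.85. Thus its ligand TNFSF13B and this receptor were called in opposite directions on day 6. TNFRSF17, or BCMA, a receptor for APRIL and BAFF, rose on day 3 by 0.62 (SE 0.19, 0.026), not called without the arrays numbered 3 (0.18), and stood at 0.42 on day 6 (0.073). TNFRSF13B, or TACI, the third of these receptors, was at 5.53 ± 0.15 with EZH2i and 5.92 ± 0.01 with DMSO (SD, n = 3 each), a difference not called (limma adjusted p = 0.096). CD27 was at 9.40 ± 0.15 with EZH2i and 9.54 ± 0.16 with DMSO (limma adjusted p = 0.22). Its ligand CD70 was at 7.05 ± 0.05 with EZH2i and 7.36 ± 0.12 with DMSO (limma adjusted p = 0.13).

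Of the 3 decoy receptors, TNFRSF10C fell on day 6 by 0.38 (SE 0.11, limma adjusted p = 0.0099), a call lost without the arrays numbered 3 (0.092) and without EZH2i replicate 1, where it stood at -0.21 (0.10). The other decoys, TNFRSF10D and TNFRSF11B were not called. Among the 10 other receptors, TNFRSF14, also called HVEM and a partner of BTLA and LIGHT, rose by 0.42 (SE 0.11, 0.0044), with EZH2i at 5.88, 5.72 and 5.61 against DMSO at 5.40, 5.51 and 5.04. TNFRSF12A, the TWEAK receptor, fell by 0.43 (SE 0.11, 0.0029), with EZH2i at 6.15, 6.22 and 5.94 against DMSO at 6.41, 6.64 and 6.55, and was not called without the arrays numbered 3 (0.069). The remaining 8, LTBR, TNFRSF11A, TNFRSF18, TNFRSF19, TNFRSF1B, TNFRSF4, TNFRSF8 and TNFRSF9, were not called on any day in the fit of the 8 groups. On day 6, 33.3% of the decoys and 20% of the 10 other receptors were called, against 45.4% of all genes. All 15 receptors never called had day 6 differences between -0.39 and 0.22 on their brightest probe sets. Other sets of some of them were called on day 6, such as TNFRSF11A at 0.55 and LTBR at -0.47, as given below. TNFRSF10A-DT, a non-coding RNA that starts beside TNFRSF10A, fell by 0.27 on day 3 (SE 0.09, 0.044) and by 0.51 on day 6 (SE 0.09, 5.5e-05). The 2 antisense RNAs, TNFRSF10B-AS1 and TNFRSF14-AS1, were not called on any day on their brightest probe sets, although another set of TNFRSF14-AS1 was called lower on day 6 (-0.35, 0.034).

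The effect on day 6 was tested against that on day 1. Of 15 ligands 5 had a higher and 4 a lower effect on day 6, and of 26 receptors 3 and 2, where 12.3% of all genes were called higher and 14.4% lower. The largest were TNFRSF21 at 4.51 (SE 0.21, limma adjusted p = 7.1e-12), TNFSF10 at 3.75 (SE 0.38, 1.9e-07) and TNFSF8 at 3.16 (SE 0.25, 8.7e-09). In DMSO cells alone, day 6 against day 1, limma called none of the 41 ligands and receptors, and 0.238% of all genes were called higher and 0.0506% lower. An unadjusted p under 0.05 was found for 6 of the 41. LTA differed by 0.46 there (adjusted p = 0.59), away from the direction of the inhibitor.

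Of all members, 22 lie in 8 runs of neighbours in the RefSeq order of protein-coding genes, with none between them except 1 between TNFRSF1A and LTBR. Calls here are those of the fit of the 8 groups. On day 6 it called 18.5% of all genes higher and 26.9% lower. Only the chromosome 9 run, TNFSF15 with TNFSF8, had every gene called in 1 direction. Whether neighbours share a direction more often than other genes was not tested. On chromosome 6 LTA and TNF fell and LTB was not called. FASLG fell and TNFSF4 rose with TNFSF18 between them not called, on chromosome 1. Of the 4 TRAIL receptors on chromosome 8, TNFRSF10A and TNFRSF10C fell on day 6 and TNFRSF10B and TNFRSF10D were not called. On chromosome 12 TNFRSF1A fell, and LTBR and CD27 were not called. In the other 3 runs, TNFRSF18 with TNFRSF4, TNFRSF8 with TNFRSF1B, and TNFSF9 with CD70 and TNFSF14, no gene was called on day 6.

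**Figure D3:**
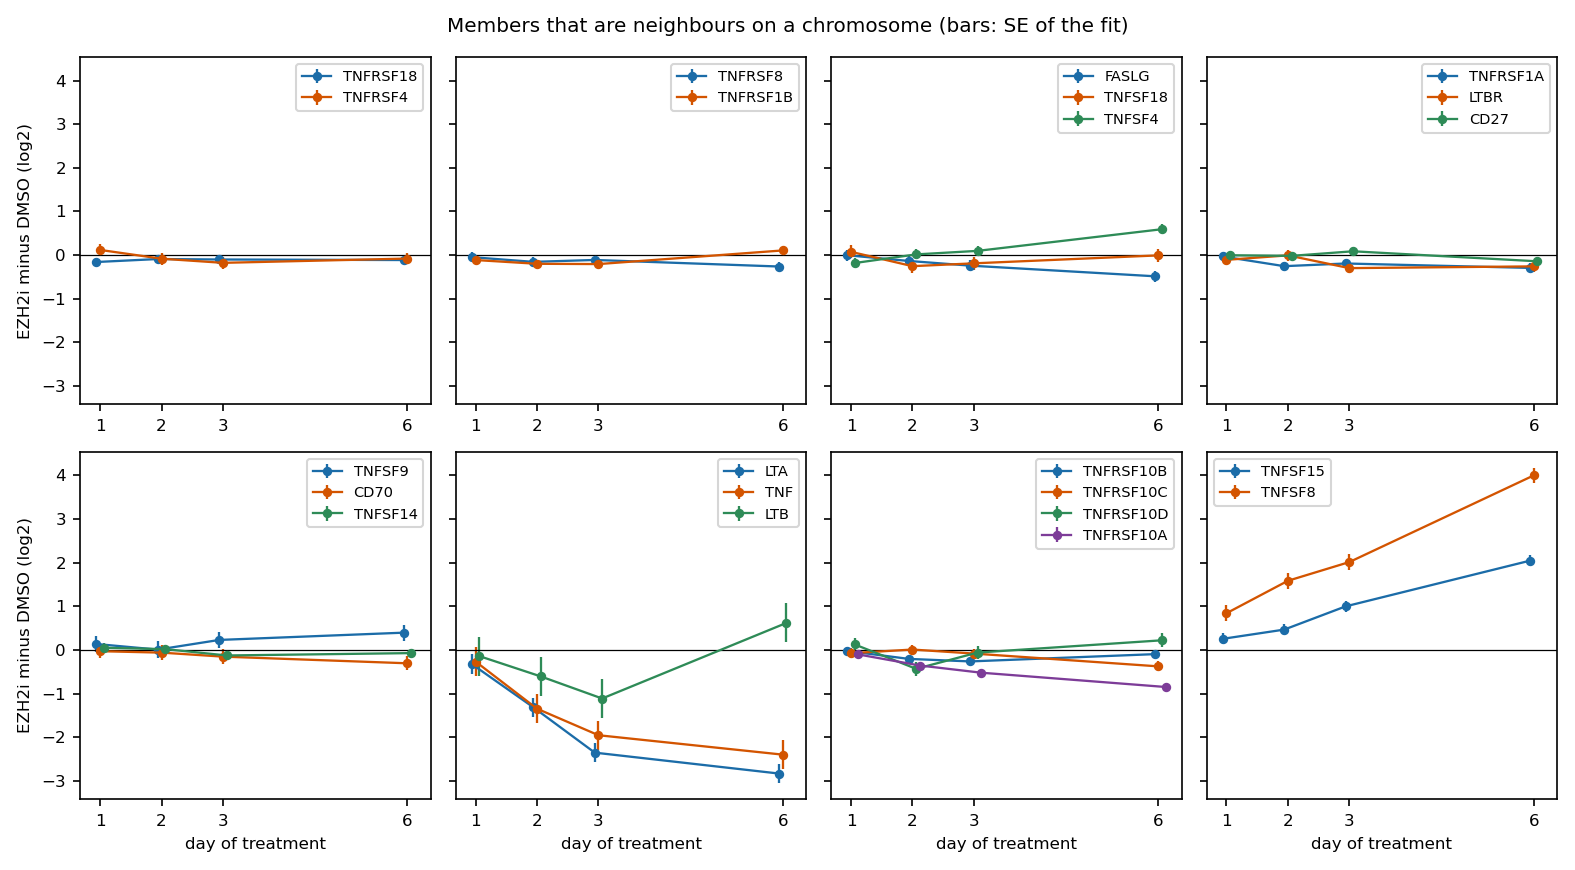
Difference in log2 expression, EZH2i minus DMSO, by day of treatment for the 8 runs of neighbouring members, with the SE of the fit as bars. TNFSF8 and TNFSF15 move up together, LTA and TNF move down together with LTB apart at 0.62 on day 6, and most other runs stay near 0.

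The members had 89 probe sets, and 25 of 44 had more than 1. For the large rises all sets gave the same direction and were called on day 6. LTA and TNF, the large falls, have 1 probe set each, so agreement between sets could not be checked for them. CD40 had 3 other sets at 3.13, 3.00 and 2.1, all above the 1.80 of its brightest. TNFSF13B had another at 2.47, TNFSF15 at 2.59, TNFRSF21 at 3.09, TNFSF10 at 3.42 and 2.61, and TNFSF8 at 1.33 and 2.07. All 3 sets of TNFRSF10A and all 4 of TNFRSF10C were called lower. Sets disagreed for genes with small differences. TNFRSF10B had 2 further sets at -0.56, called, against -0.10, and TNFRSF11A had a set at 0.55, called, against 0.15. A second LTBR set at -0.47, a TNFSF14 set at -0.47, a TNFRSF4 set at -0.33 and 3 sets of TNFRSF25 were called lower where the brightest was not. For LTB the other set stood at -0.18, opposite in sign to its brightest. No cause of these disagreements was tested.

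**Figure D4:**
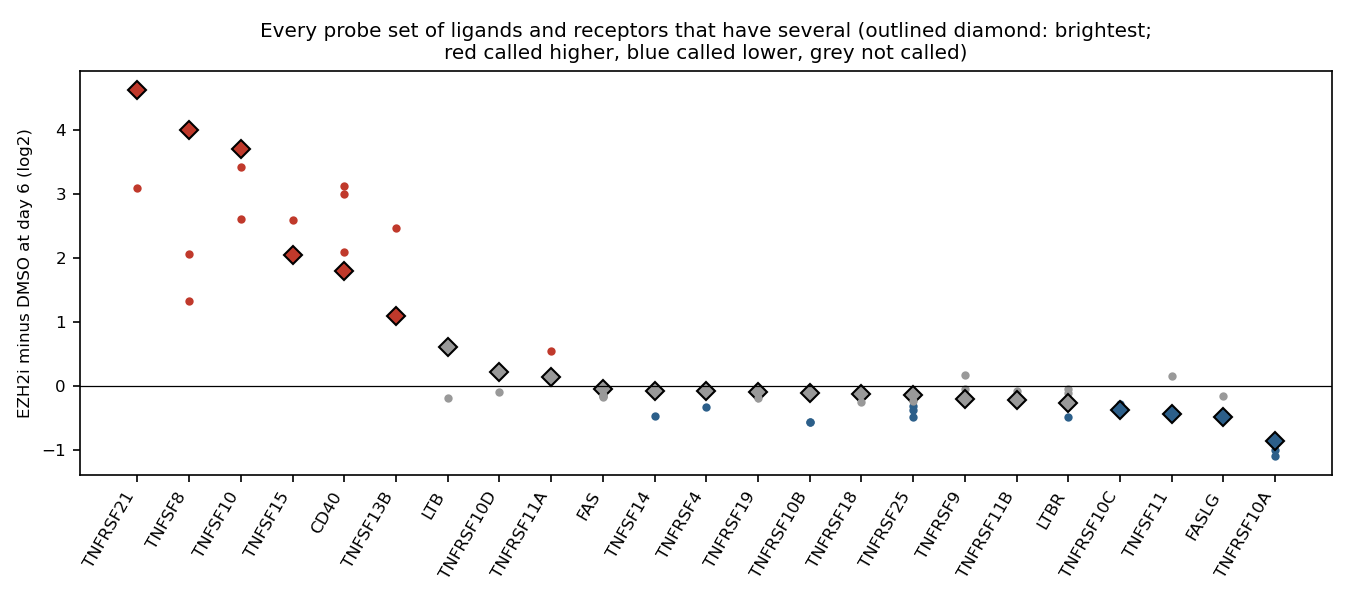
Difference in log2 expression, EZH2i minus DMSO at day 6, for every probe set of the ligands and receptors that have several, with a diamond for the brightest set of each gene. The sets of the 6 most raised genes all lie above 1, and those of LTB and TNFSF11 lie on both sides of 0.

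Signalling genes downstream of the receptors were followed in a list of adaptors, kinases, caspases, ubiquitin enzymes and NF-kB subunits, of which 42 of 47 were measured. On day 6, 20 rose and 7 fell, with a median difference of 0.29, where 18.5% of all genes were called higher and 26.9% lower, with a median of -0.11. On day 3 the counts were 11 and 5 of 42, where 8.64% of all genes were called higher and 7.65% lower. Without the arrays numbered 3 the day 3 counts were 4 and 3, and those of all genes called either way were 2044 against 3221 with them. Adaptors and kinases had 10 higher and 3 lower of 19, the caspase side 1 and 2 of 5, ubiquitin enzymes 5 and 1 of 10, and NF-kB genes 4 and 1 of 8, to be read against the same shares of all genes. CYLD, a deubiquitinase that restrains NF-kB, rose by 1.61 (SE 0.10, limma adjusted p = 3.8e-11). TNFAIP3, which encodes the inhibitor A20, rose by 0.86 (SE 0.20, 0.001). On the activating side, REL, an NF-kB subunit, rose by 1.06 (SE 0.13, 6e-07) and the kinase IKBKB by 0.95 (SE 0.10, 9.6e-08). TRADD, the adaptor of TNFRSF1A, rose by 0.86 (SE 0.09, 4.5e-08). TRAF5, an adaptor of CD40 and CD27, rose by 1.42 (SE 0.15, 1e-07), while TRAF4 fell by 0.99 (SE 0.16, 1.9e-05). TAB2, a partner of the kinase TAK1, was at 0.82 (SE 0.08, 2.5e-08), but at -0.24 (0.034) on a gene-specific probe set, so its direction is not settled.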

How the data were processed

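RNA from 24 cultures was hybridised to Affymetrix U133 Plus 2 arrays. The deposited log2 values of 54613 probe sets were made by the authors with RMA, and the submitters' processing notes name R 2.10.1. The log base is not given in the sources used here. The values span 1.72 to 14.33 with array medians of 4.958 to 5.032, as RMA gives on the log2 scale. RMA gives no detection calls, depth has no meaning for arrays, and the number of arrays limits the precision.

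Genes were assigned to probe sets by the platform's annotation. A single symbol was found for 41091, several for 1801, which were left out, and none for 11721. Symbols were updated by Entrez ID for 41037 and 54 kept the old one. The brightest probe set over the 24 arrays stood for each of 19775 genes, with no filter on low values. Differences were fitted with limma 3.58.1 in R 4.3.3 with version 1.17.8 of data.table, with 1 coefficient for each of 8 groups, 16 residual and 5.22 prior degrees of freedom, and 2-sided p with Benjamini-Hochberg adjustment across the 19775 genes. A gene is said to have risen or fallen where its adjusted p was under 0.05. Every SE is that of the fit. An exact test of 3 arrays against 3 was not used. The code was tested on simulated data.

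Groups came from the sample labels. Members and lists were chosen with earlier results of these data known. Members with a called difference of at least 1 (log2) at day 6, or called on 3 days, are given by array; other called members by their difference; the rest by range. Of the signalling list, the 8 called members with the largest difference at day 6 are named. Alternatives were averaged probe sets, gene-specific probe sets, centred arrays, dim genes left out, fits limited to the groups compared, the replicate number as a block and leaving out arrays. The omission of all arrays numbered 3 was chosen after seeing the data. Same-numbered arrays of a day deviated together, but 1 of 12 pairs had a correlation at or under 0.1 (range 0.043 to 0.554), so the numbers were not taken to pair the cultures. No array was a duplicate of another.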

Additional observations from a re-analysis of the deposited data

Results flagged for a closer look

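For 14 ligands and receptors the inhibitor effect on day 6 differed from that on day 1, by the test of that difference in limma (adjusted p under 0.05 over all genes). Higher on day 6 than on day 1 were the effects (log2) on TNFRSF21 by 4.51, TNFSF10 by 3.75, TNFSF8 by 3.16, CD40 by 1.80, TNFSF15 by 1.79, TNFSF13B by 0.95, TNFSF4 by 0.78 and TNFRSF14 by 0.56. Lower on day 6 than on day 1 were the effects on LTA at -2.51, TNF at -2.13, TNFRSF10A at -0.75, TNFSF11 at -0.58, FASLG at -0.48 and TNFRSF13C at -0.48. The differences of TNFSF11 (adjusted p = 0.11), FASLG (0.065) and TNFRSF13C (0.064) were not called without the 8 arrays numbered 3. Groups of 3 arrays were not searched for single outlying arrays.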

How the results depend on the processing

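Of 59 called results for single genes, 41 kept their call and direction under every alternative that measured them, among them every day 6 call of a member with a change of at least 2-fold. With gene-specific probe sets 3 turned direction: TNFSF11 to 0.16 on day 6 and 0.23 for day 6 against day 1, and TAB2 to -0.24. Counts of ligands and receptors moved as follows. On day 1 averaged probe sets and the fit limited to the groups compared gave 0 higher. On day 3 centring on array medians gave 7 lower and leaving out the dimmest 40% gave 4 higher, and the same filter gave 4 higher on day 6 and 4 for day 6 against day 1. Without the arrays numbered 3, day 3 had 4 higher, day 6 had 5 lower and day 6 against day 1 had 3 lower.

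With the replicate number as a block, all 59 results held. The block gave 7 lower members on day 3 and 2 higher in DMSO alone, 3 and 8 lower signalling genes on days 2 and 3, and 246, 1649 and 199 genes in all on day 1, on day 2 and in DMSO alone, against 96, 869 and 57. It added calls for LTB on days 2, 3 and 6 (-0.61, -1.11 and 0.62, adjusted p of 0.017, 2.1e-05 and 0.0024; within replicate numbers 1, 2 and 3 it differed by -1.07, -1.39 and -0.88 on day 3 and by 0.24, 0.50 and 1.11 on day 6), CD70 on day 6 (-0.31, 0.0081), TNFSF9 on day 6 (0.39, 0.0039), TNFRSF21 on day 2 (0.48, 0.016), TNFRSF8 on day 6 (-0.26, 0.045), and TNFRSF13C and TNFRSF1B on day 3 (-0.25 and -0.21, 0.030 and 0.026). Of 24 arrays 23 correlated best with arrays of their own number, a hint from the data and not the design.

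All genes called were 53 on day 1 with averaged probe sets, 46 on day 1 and 31 in DMSO alone with the limited fit, and 505, 2044 and 7 on day 2, on day 3 and in DMSO alone without the arrays numbered 3, against 3221 on day 3. Signalling genes came to 7 higher and 3 lower on day 3 and 11 lower on day 6 with averaged sets, 0 and 3 lower on days 2 and 3 with gene-specific sets, 0 lower on day 2 and 6 higher and 3 lower on day 3 with the limited fit, and 1 higher on day 2 and 4 higher and 3 lower on day 3 without the arrays numbered 3. Leaving out single arrays gave members 0 to 1 higher on day 1, 1 to 2 higher and 2 to 4 lower on day 2, 5 to 8 and 3 to 6 on day 3, 8 to 9 and 8 to 11 on day 6, and 8 to 9 and 5 to 8 for day 6 against day 1. Signalling genes ranged over 1 to 3 higher and 0 to 1 lower, 7 to 10 and 2 to 6, and 19 to 21 and 5 to 7 on days 2, 3 and 6. All genes ranged over 32 to 87 on day 1, 555 to 720 on day 2, 2352 to 3067 on day 3 and 23 to 41 in DMSO alone. Other than where an alternative has fewer arrays or genes, the cause was not tested. Dim genes limit what the arrays can show.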
